A study of Mus musculus with 4 samples.

Results

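Transcripts of 9 complement genes, chosen by symbol, were followed through the cells of the mouse retina: C1qa, C1qb, C1qc, C3, C4b, C3ar1, C5ar1, Itgam and Serping1. They are 9 of the 27999 genes in the matrix. Complement is a cascade of secreted proteins that tags cells, debris and synapses for removal. C1q, assembled from the products of C1qa, C1qb and C1qc, starts the classical pathway, C4 and C3 are cleaved next, and their fragments are read by receptors on phagocytes. In the retina and brain, microglia are the best known source of C1q, and C1q and C3 are known for their part in pruning the synapses that retinal axons form in the developing brain.

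Cells came from retinas of C57BL/6 mice aged 3 months that carried a Brn3b::GFP reporter. Brn3b is the protein of Pou4f2, a transcription factor of retinal ganglion cells (RGCs), the neurons whose axons form the optic nerve. All cells were sorted for GFP by flow cytometry, and single cells were captured with 10X Chromium 3′ V2 chemistry. The labels name 4 retinas in 1 group with no other genotype, treatment or age. The matrix held 3237 cell barcodes with 31361961 unique molecular identifiers (UMIs, 1 for each captured transcript), a median of 7674 per barcode (3198 to 53709). No barcode was tied to a retina. It was therefore 1 sample, so that differences between cell classes have no replicate check and no p-value. Intervals are exact 95% intervals and cover counting error only.

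Cells were sorted into 4 classes by raw UMIs of genes that are not complement genes. Müller glia, which span the retina and support its neurons, had 3 or more UMIs each of Rlbp1 and Slc1a3, and microglia, the resident phagocytes, had 3 or more each of Tyrobp and Ctss. Horizontal cells, inhibitory interneurons of the outer retina, had 2 or more Lhx1 UMIs and 0 of Slc17a6. RGCs had 1 or more Slc17a6 UMIs, 3 or more of Rbpms and Slc17a6 together and at most 1 of Lhx1. This gave 232 Müller, 181 microglial, 455 horizontal and 938 RGC barcodes with medians of 4654, 3980, 11075 and 15860 UMIs, after 14 barcodes that met more than 1 rule were left out. Although the labels call the cells retinal ganglion cells, RGC barcodes were 938 of the 3237. The matrix lists the reporter transcript EGFP at 0 UMIs, so the sort could not be checked on it, and because cells were sorted these numbers do not describe the makeup of the retina.

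The class names were checked on markers that the rules did not use. All 17 microglial markers were highest in the microglial class, all 9 RGC markers in RGCs and all 7 horizontal markers in horizontal cells. Of 10 Müller markers, 9 were highest in Müller cells, and Vim was higher in horizontal cells. Markers of macrophages, monocytes and neutrophils were sparse in the microglial class: 8 macrophage genes summed to 101 UMIs, with 3 of the genes at 0, and 6 monocyte and neutrophil genes summed to 7 UMIs, with 5 at 0. Further barcodes with bipolar (669), cone (126) and Tfap2b (314) transcripts served as further comparisons. The Tfap2b barcodes carried horizontal markers at 6737 CPM (UMIs per 1000000 UMIs of the class) and amacrine markers at 2069 CPM, and are named only by that gene. The microglial class was not free of other retinal markers. Of the 4 classes it was highest for all 5 rod, all 5 cone and 4 of 6 bipolar markers. Bipolar markers summed to 2731 CPM there, against 395 CPM in Müller cells, 274 in horizontal cells and 425 in RGCs. The source of these transcripts was not tested.

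The genes lie on 5 chromosomes of the mouse genome (GRCm38, the mm10 build). The C1q genes stand side by side on the minus strand of chromosome 4, with C1qa at chr4:136895917-136898803, C1qc at chr4:136889804-136893065 and C1qb at chr4:136880129-136886187. C3 (chr17:57203970-57228136) and C4b (chr17:34728380-34743882) share chromosome 17, and C5ar1 (chr7:16246743-16259540) and Itgam (chr7:128062640-128118491) share chromosome 7. C3ar1 lies at chr6:122847138-122856161 and Serping1 at chr2:84765387-84775444, and all 9 are protein-coding genes.

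RefSeq promoter windows, from 250 bases before to 50 bases after the annotated start (GRCm38.p6), were matched for 6 of the 9 genes. Those of C1qa, C4b and Serping1 were not matched. Windows of 4 genes with their highest level in microglia are shown because the letters AGGAAGT, a core of the kind that the myeloid transcription factor PU.1 recognises, recur in 3 of them. Each is written 5′ to 3′ in the direction of its gene, on the minus strand, at chr4:136886151-136886450 for C1qb, chr4:136892865-136893164 for C1qc, chr7:16259289-16259588 for C5ar1 and chr6:122856108-122856407 for C3ar1. Capitals mark AGGAAGT read on the other strand (ACTTCCT).
C1qb: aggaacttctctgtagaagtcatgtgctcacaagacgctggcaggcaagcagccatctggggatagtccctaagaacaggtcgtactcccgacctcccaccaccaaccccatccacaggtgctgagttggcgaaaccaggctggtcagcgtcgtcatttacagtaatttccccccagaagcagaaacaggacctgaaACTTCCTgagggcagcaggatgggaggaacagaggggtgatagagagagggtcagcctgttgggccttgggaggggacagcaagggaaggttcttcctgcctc
C1qc: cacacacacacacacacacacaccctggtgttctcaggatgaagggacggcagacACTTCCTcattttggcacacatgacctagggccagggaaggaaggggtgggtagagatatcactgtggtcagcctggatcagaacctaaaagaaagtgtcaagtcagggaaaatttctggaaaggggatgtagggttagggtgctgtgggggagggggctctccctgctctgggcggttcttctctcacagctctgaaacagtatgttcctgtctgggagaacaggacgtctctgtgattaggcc
C5ar1: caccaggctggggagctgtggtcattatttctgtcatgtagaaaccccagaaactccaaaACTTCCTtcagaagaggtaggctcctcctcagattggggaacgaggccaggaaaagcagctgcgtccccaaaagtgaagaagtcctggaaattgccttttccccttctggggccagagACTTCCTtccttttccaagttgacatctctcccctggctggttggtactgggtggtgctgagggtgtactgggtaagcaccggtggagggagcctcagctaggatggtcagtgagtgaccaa
C3ar1: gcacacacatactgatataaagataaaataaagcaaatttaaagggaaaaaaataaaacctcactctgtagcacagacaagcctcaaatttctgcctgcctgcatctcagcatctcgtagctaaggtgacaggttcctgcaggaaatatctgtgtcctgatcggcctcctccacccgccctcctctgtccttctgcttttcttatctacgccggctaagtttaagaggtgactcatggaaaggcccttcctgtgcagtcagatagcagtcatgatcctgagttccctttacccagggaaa

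The AGGAAGT letters began 53 bases before the start of C1qb, 195 before that of C1qc, and 190 and 72 before that of C5ar1. The match in C1qc extended to GAGGAAGT, which contains the shorter string. On either strand AGGAAGT was in 9.35% and GAGGAAGT in 3.20% of all 32851 promoter windows of this length. TATAAA, the core of the TATA box, was in 13.6% of all windows, and among these genes it began 235 bases before the start of C3ar1 and at base 15 after the start of C3. Neither AGGAAGT nor TATAAA was in the window of Itgam. The strings were chosen after several had been looked at, and a match describes the letters, not a bound site.

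Among the 9 genes, those of C1q had the highest counts, nearly all in microglia: 89.2% of C1qa, 87.8% of C1qb and 88.9% of C1qc UMIs came from that class. The 3 genes together reached 23941 CPM (23617 to 24269) in microglia, with 8215 CPM for C1qa, 8647 CPM for C1qb and 7080 CPM for C1qc. In the 181 microglial barcodes the lowest, median and highest C1qa counts were 3, 38 and 151 UMIs. For C1qb they were 6, 38 and 203 UMIs, and for C1qc 5, 32 and 150 UMIs. Every microglial barcode thus held all 3 transcripts, and their sum ran between 16 and 504 UMIs with a median of 110. C1q made up a median of 2.76% of a microglial cell's UMIs, between 0.121% and 5.86%.

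C1q counts of single Müller, horizontal and RGC barcodes did not reach this range. The lowest, median and highest sums were 0, 0 and 3 UMIs in Müller cells, 0, 0 and 4 in horizontal cells, and 0, 1 and 5 in RGCs. The ranges of those 3 classes therefore did not overlap with that of microglia, with barcodes that met more than 1 rule left out. Those 14 barcodes held between 0 and 117 C1q UMIs with a median of 45, so leaving them out in part set this separation. At 3000 UMIs per cell, a depth every barcode reached, 97 of 181 microglial barcodes held between 60 and 99 C1q UMIs and 45 held 100 or more, whereas 787 of 938 RGC barcodes held 0 and 138 held 1.

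**Figure D1:**
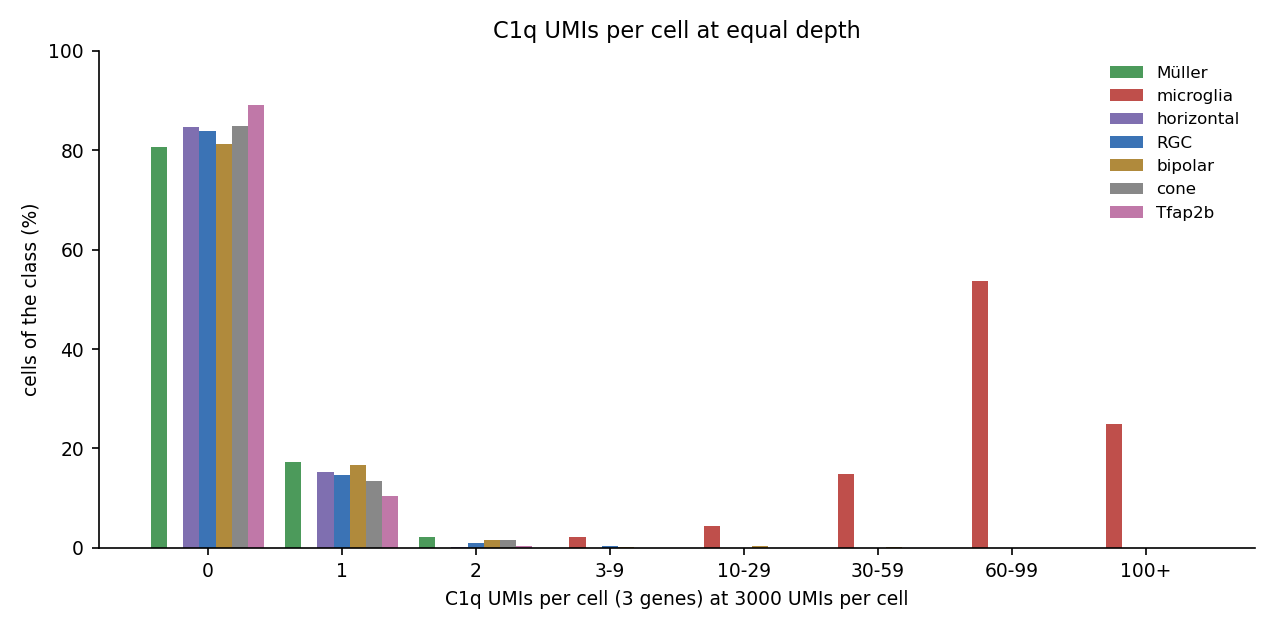
Share of the cells of each class (y axis, percent) by their number of C1q UMIs, the 3 genes summed, after each cell was thinned to 3000 UMIs (x axis). Bars are classes. Microglia lie at 3 or more UMIs, with 53.6% of them between 60 and 99, and the bars of the other classes lie almost wholly at 0 and 1.

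Within microglia the C1q transcripts went together from cell to cell. Over the 181 barcodes, Spearman's rho of CPM was 0.74 between C1qa and C1qb, 0.67 between C1qa and C1qc and 0.68 between C1qb and C1qc. Between C1qa and Itgam it was 0.09. After thinning these values were 0.70, 0.63, 0.63 and 0.04. All cells share 1 library, and the sparse counts of Itgam limit its value.

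The microglial class was not uniform in C1q. In 14 of its 181 barcodes C1q made up under 1% of UMIs. The median depth of these 14 was 9012 UMIs, against 3851 in the other 167, and 3 of them held a macrophage marker UMI. The 3 barcodes with the fewest C1q UMIs (16, 17 and 22) had 13217, 5142 and 11372 UMIs in all. They held 0, 1 and 1 UMIs of P2ry12 and 1, 0 and 3 of Tmem119, where the class medians were 5 and 5. Their identity as microglia is thus uncertain. In the 15 microglial barcodes with a UMI of a macrophage marker such as Ms4a7 or Mrc1, C1q reached 18638 CPM (17799 to 19506), against 24629 CPM (24279 to 24983) in the 166 without one. The 9 barcodes with an Ms4a7 UMI had 24396 CPM, close to those without any macrophage marker. The group with a macrophage marker UMI was also deeper, with medians of 6546 against 3882 UMIs, and the part of depth in the difference was not tested. A UMI of the macrophage list was held by 16.3% of bipolar barcodes (list at 43.5 CPM) and 8.29% of microglial barcodes (117 CPM). Such a UMI therefore does not by itself identify a macrophage.

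The other 3 main classes held a low C1q level. It was 67.7 CPM (53.4 to 84.6) in Müller cells, 54.5 (48.2 to 61.3) in horizontal cells and 58.5 (54.8 to 62.4) in RGCs. C1qa stood at 25.5, 19.0 and 18.5 CPM in these 3 classes, C1qb at 22.9, 19.6 and 24.4 CPM, and C1qc at 19.3, 15.8 and 15.6 CPM. The intervals of the 3 classes overlapped for each gene and for the sum: the ratio of the sums was 1.16 (0.905 to 1.46) for Müller cells over RGCs and 0.931 (0.811 to 1.07) for horizontal cells over RGCs. For microglia over RGCs it was 409 (383 to 438), with 445 for C1qa, 354 for C1qb and 454 for C1qc. Among the 298 barcodes of no class 1 held 137 C1q UMIs, 57.6% of theirs, and the level of the others was 59.2 CPM. Of the 14 barcodes that met more than 1 rule, 11 held 6 or more C1q UMIs.

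**Figure D2:**
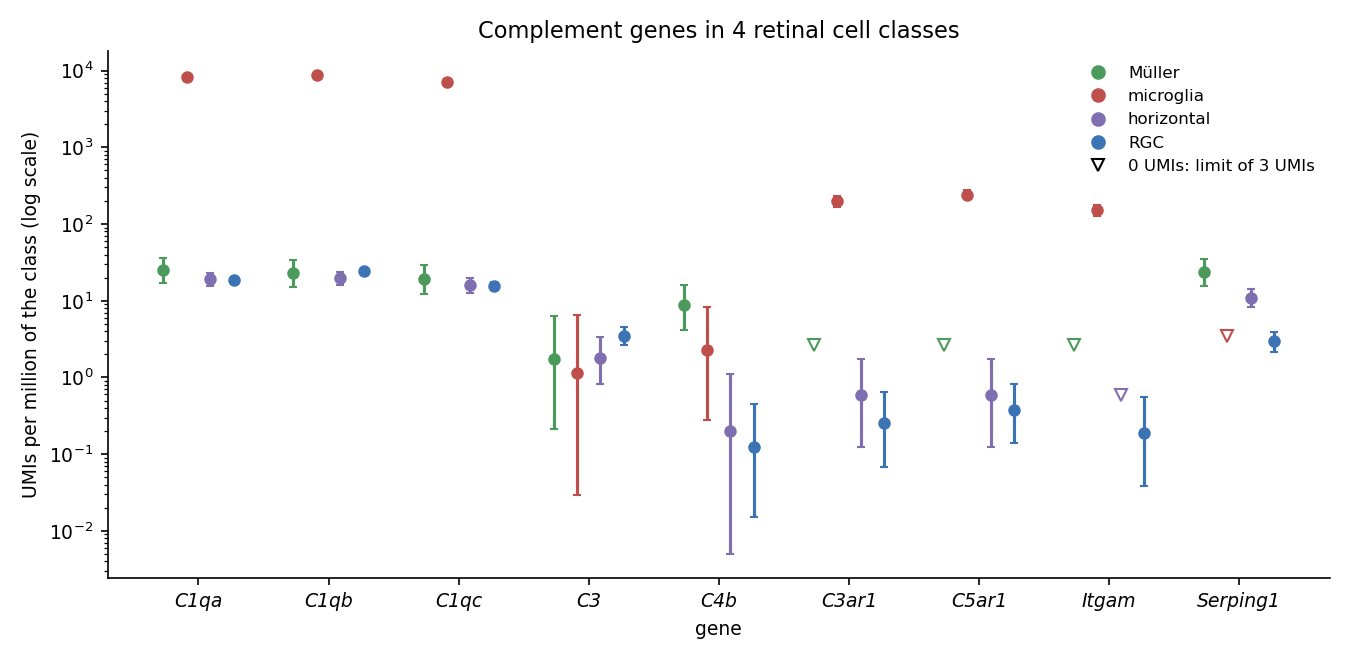
Level of each of the 9 genes (x axis) in CPM (y axis, log scale) in 4 cell classes, with exact 95% counting intervals. Open triangles mark 0 UMIs, drawn at the limit of 3 UMIs over the class. C1qa, C1qb and C1qc stand between 7080 and 8647 in microglia and under 26 elsewhere, C3ar1, C5ar1 and Itgam are also highest in microglia, and Serping1 is highest in Müller cells.

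Share and depth moved together outside microglia. In the full counts 26.7% of Müller, 100% of microglial, 45.1% of horizontal and 61.8% of RGC barcodes held a C1q UMI. At 3000 UMIs per cell the shares were 19.4% (14.5 to 25.1) in Müller cells, 100% in microglia, 15.4% (12.2 to 19.0) in horizontal cells and 16.1% (13.8 to 18.6) in RGCs. Bipolar, cone and Tfap2b barcodes gave 18.8%, 15.1% and 10.8% (7.62 to 14.8) at this depth. The order by depth was gone after thinning, and the intervals of the 3 main non-microglial classes overlapped.

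The low level was set against genes that also mark microglia. For each of 17 microglial markers, from the receptor Cx3cr1 to the transmembrane protein Tmem119, the level in a class was taken as a percent of its level in microglia. C1q stood at 0.283% (0.223 to 0.354) of its microglial level in Müller cells, where the markers had a median of 0.230% and ran between 0% for P2ry13 and 0.790% for Cd53. In horizontal cells C1q stood at 0.228% (0.201 to 0.256), and the markers had a median of 0.256% and a low of 0.0987% for Cx3cr1. Their high there was 21.5% for Olfml3, a secreted matrix protein, and 0.530% for Unc93b1 once Olfml3 was set aside. In RGCs C1q stood at 0.244% (0.229 to 0.261), and the markers had a median of 0.214% between 0.0902% for Ly86 and 0.530% for Olfml3.

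C1q thus lay within the range of the microglial markers in each of the 3 classes, above 9, 7 and 9 of the 17 markers in Müller cells, horizontal cells and RGCs. The level is not read as expression by Müller cells, horizontal cells or RGCs. Whether RNA free in the cell suspension accounts for it was not tested.

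**Figure D3:**
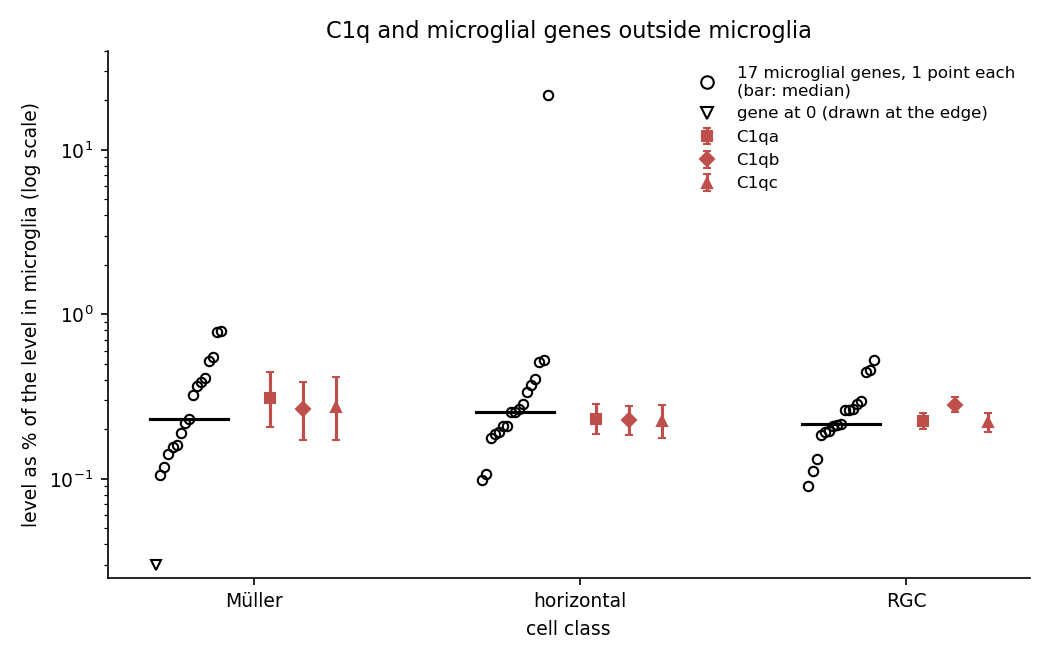
Level in 3 classes (x axis) as a percent of the level in microglia (y axis, log scale). Open circles are 17 microglial markers with their median as a bar, a triangle marks a gene at 0, and red symbols are C1qa, C1qb and C1qc with exact 95% intervals. The C1q genes, between 0.220% and 0.310%, lie among the markers in every class, and the lone circle at 21.5% in horizontal cells is Olfml3.

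The C1q UMIs of the low level did not come only from barcodes with a Tyrobp or Ctss UMI. Barcodes without one could still hold other microglial transcripts, as 70.3% of all RGC barcodes held a UMI of the 17 markers. In RGCs C1q reached 60.7 CPM in the 344 barcodes with a Tyrobp or Ctss UMI and 56.9 CPM in the 594 without one. In horizontal cells it reached 66.2 CPM with and 49.7 CPM without such a UMI, and in Müller cells 52.5 CPM with and 70.4 CPM without. Bipolar barcodes differed, with 221 CPM in the 110 with and 63.9 CPM in the 559 without. There 4 barcodes with 6 or more C1q UMIs held 88 of 292 C1q UMIs (30.1%), and without them the bipolar level was 65.1 CPM, against 92.8 CPM with them.

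The makeup of the C1q UMIs by gene was compared between classes. C1qa, C1qb and C1qc made up 37.7%, 33.8% and 28.6% of the C1q UMIs in Müller cells, 34.3%, 36.1% and 29.6% in microglia, and 34.9%, 36.0% and 29.1% in horizontal cells. In RGCs they made up 31.6%, 41.8% and 26.6%. The C1qb share of RGCs (38.6 to 45.0) lay above that of microglia (35.5 to 36.8), as did that of bipolar barcodes at 42.8% (37.1 to 48.7). In percent of the microglial level, C1qb in RGCs stood at 0.283% (0.255 to 0.313), C1qa at 0.225% (0.199 to 0.253) and C1qc at 0.220%, all within the range of the 17 markers. The horizontal interval for C1qb (30.3 to 42.0) holds both the microglial and the RGC share.

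**Figure D4:**
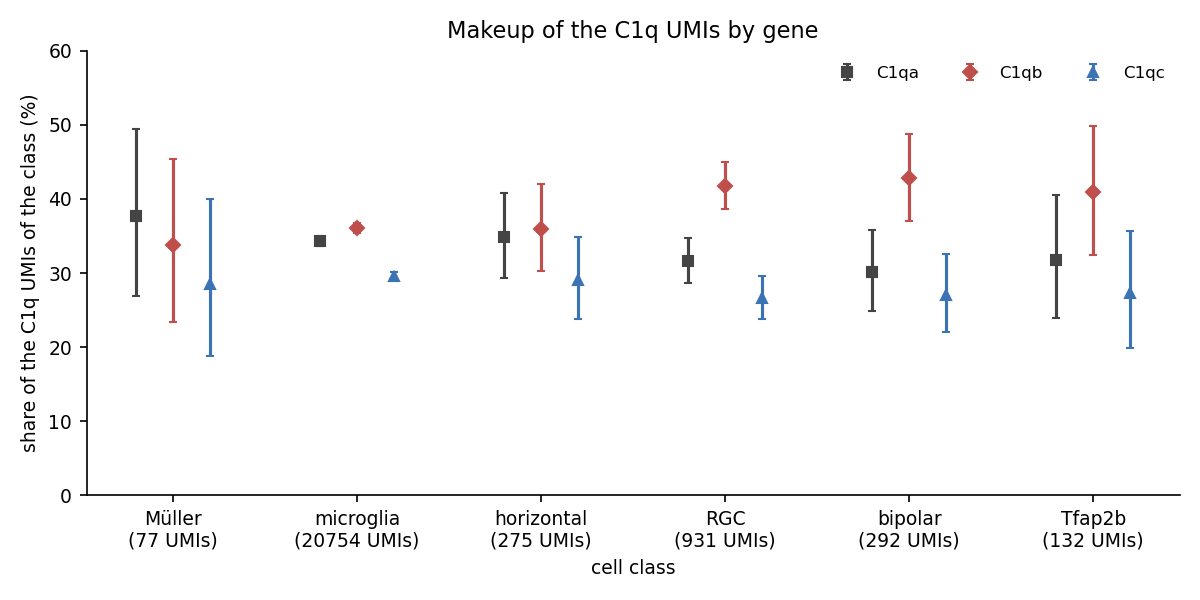
Share of the C1q UMIs of a class (y axis, percent) that belong to C1qa, C1qb or C1qc, with exact 95% binomial intervals, for 6 classes (x axis, with the number of C1q UMIs). The C1qb share is 36.1% in microglia and 36.0% in horizontal cells, and 41.8% in RGCs and 42.8% in bipolar barcodes.

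C3, the central protein on which the pathways of complement converge, was rare, and 1 of its UMIs came from microglia. It had 2 UMIs in Müller cells, 1 in microglia, 9 in horizontal cells and 56 in RGCs. The microglial level was 1.15 CPM (0.029 to 6.43) and the RGC level 3.52 CPM (2.66 to 4.57), so that the ratio of microglia over RGCs was 0.328 with an interval of 0.0081 to 1.90. This interval spans equality, so neither class is shown to be higher. Of all 81 C3 UMIs in the matrix, 1.23% lay in microglia, against 89.2% of C1qa UMIs. Microglia held 866869 of the 31361961 UMIs of the matrix, so a small share of C3 UMIs would lie there even at an equal level.

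In RGCs the C3 UMIs were spread thinly, 1 to a cell in 54 of the 55 barcodes that held any. These 55 were 5.86% of RGC barcodes, or 1.07% (0.512 to 1.95) at 3000 UMIs. For comparison, C3 had 0 UMIs in 669 bipolar barcodes of median depth 4207. This allows a share of barcodes with a UMI of up to 0.448% (3 counts). It does not limit the share of cells that express the gene. The 126 cone barcodes also held 0. At 3000 UMIs C3 was found in 0.637% (0.0772 to 2.28) of Tfap2b barcodes. In the 298 barcodes of no class the share was 1.01% (0.208 to 2.91). Both intervals overlapped that of RGCs, so the thin C3 counts do not set RGCs apart from these groups. RGC barcodes with a C3 UMI had a median of 17923 UMIs and those without 15649, and 67.3% and 61.5% of them held a C1q UMI. In horizontal cells 5 of the 9 C3 UMIs came from 1 cell of 13804 UMIs, which held 1 UMI of an endothelial marker. In Müller cells both C3 UMIs came from 1 cell, which held an astrocyte marker UMI. The Müller level of C3 thus rests on 1 cell, while the other 4 horizontal UMIs lay in 4 other cells.

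C4b encodes C4, which C1q-bound proteases cleave to carry the classical pathway on to C3. It had 10 UMIs in Müller cells, each in a different cell, 2 in microglia, 1 in horizontal cells and 2 in RGCs. The Müller level was 8.79 CPM (4.22 to 16.2) and the RGC level 0.126 CPM (0.0152 to 0.454), a ratio of 70.0 with a counting interval of 14.9 to 657. Astrocyte markers moved with it: all 4 were highest in Müller cells, where Gfap had 88 UMIs in 7 barcodes. Aldh1l1 had 32 UMIs in 31 Müller barcodes, so a split by this list there is mostly a split by Aldh1l1. C4b reached 19.0 CPM (5.18 to 48.7) in the 37 Müller barcodes with an astrocyte marker UMI and 6.47 CPM (2.37 to 14.1) in the 195 without one. Pericyte markers moved with it too: 3 of 4 were highest in Müller cells, and C4b reached 18.2 CPM (7.33 to 37.6) in the 74 Müller barcodes with a UMI of one and 3.98 CPM (0.821 to 11.6) in the 158 without. Pdgfrb, 1 of the 4 pericyte markers, was found in 68 of these 74 barcodes. Endothelial markers went the other way. C4b stood at 7.34 CPM (2.95 to 15.1) in the 192 Müller barcodes with a UMI of one and at 16.3 CPM (3.35 to 47.5) in the 40 without. The endothelial marker Flt1 was found in 186 of these 192 barcodes, so this is mostly a split by Flt1. All 3 pairs of intervals overlapped, and the part of these cells in the C4b level was not tested. C4b has a near-identical neighbour, C4a, which was not analysed here, and how the authors' counting treated reads shared by the pair is not given, so the C4b counts are uncertain.

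The receptors were highest in the same class as C1q, at lower counts. C3ar1, the receptor of the C3a fragment, had 0 UMIs in Müller cells, 171 in microglia, 3 in horizontal cells and 4 in RGCs. C5ar1, the receptor of C5a, had 0, 209, 3 and 6 UMIs in the same order. Itgam, the alpha chain of complement receptor 3, which binds cleaved C3 on the surface of targets, had 0, 131, 0 and 3 UMIs.

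Their microglial levels were 197 CPM (169 to 229) for C3ar1, 241 CPM (210 to 276) for C5ar1 and 151 CPM (126 to 179) for Itgam. Over RGCs this was a ratio of 785 (301 to 2914) for C3ar1, 640 (289 to 1763) for C5ar1 and 802 (268 to 3938) for Itgam. In percent of the microglial level, C3ar1 stood at 0.301% in horizontal cells and 0.127% in RGCs, C5ar1 at 0.246% and 0.156%, and Itgam at 0% and 0.125%. Apart from Itgam in horizontal cells, which was at 0 with an interval up to 0.490%, these values lay within the range of the 17 markers. In Müller cells 0 UMIs of each allow up to 2.64 CPM. A second identifier in the matrix also carries the symbol Itgam and overlaps the gene. It held 1 UMI, and how the authors' counting treated reads that fit both is not given, so the Itgam counts are uncertain.

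Single microglial cells held few receptor transcripts. C3ar1 ran between 0 and 6 UMIs with a median of 1, C5ar1 between 0 and 7 with a median of 1, and Itgam between 0 and 4 with a median of 0. C3ar1 and C5ar1 were each detected in 58.6% of microglial barcodes and Itgam in 49.2%, or 47.5%, 47.5% and 37.0% at 3000 UMIs. In RGCs, of median depth 15860, the shares were 0.426%, 0.640% and 0.320%. C3ar1 and C5ar1 were found together in 67 barcodes, C3ar1 alone in 39, C5ar1 alone in 39 and neither in 36, so that 37.0% held both where the product of their shares is 34.3%. Spearman's rho between C3ar1 and C5ar1 was 0.17, a weak value in counts this sparse.

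The 15 microglial barcodes with a macrophage marker UMI and the 166 without had overlapping intervals for C3ar1, at 211 CPM (131 to 323) against 195 CPM (165 to 229). C5ar1 stood at 121 CPM (62.3 to 211) with and 257 CPM (222 to 295) without such a UMI, intervals that did not overlap. The first value rests on 12 UMIs. In the 9 barcodes with an Ms4a7 UMI C5ar1 stood at 174 CPM (79.7 to 331), which overlaps the interval without a macrophage marker. Itgam stood at 90.5 CPM (41.4 to 172) with a macrophage marker UMI and 159 CPM (132 to 190) without, and its intervals overlapped. The barcodes with such a UMI were also deeper, and the part of depth was not tested. The single microglial barcode with a C3 UMI held 88 C1q UMIs and 1 C3ar1 UMI among its 3226 UMIs.

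Serping1, which encodes the C1 inhibitor that blocks the C1q-bound proteases, was the member with no UMI in microglia. It had 27 UMIs in Müller cells, 0 in microglia, 55 in horizontal cells and 47 in RGCs. The levels were 23.7 CPM (15.6 to 34.5) in Müller cells, 10.9 CPM (8.21 to 14.2) in horizontal cells and 2.95 CPM (2.17 to 3.93) in RGCs, 3 intervals that did not overlap. Those of Müller and horizontal cells did overlap with the class thresholds doubled, at 19.4 CPM (9.70 to 34.8) and 11.9 CPM (8.07 to 16.9), and without the Müller barcodes that held an astrocyte marker UMI. In microglia 0 UMIs allow up to 3.46 CPM. The ratio was 8.04 (4.81 to 13.2) for Müller cells over RGCs, 3.69 (2.45 to 5.57) for horizontal cells over RGCs, and at least 6.86-fold higher in Müller cells than in microglia, with the floor of 3 UMIs over the class.

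At 3000 UMIs per cell Serping1 was detected in 6.47% (3.66 to 10.4) of Müller, 4.62% (2.88 to 6.97) of horizontal and 0.746% (0.301 to 1.53) of RGC barcodes. The 0 of 181 microglial barcodes allow a share of barcodes with a UMI at this depth of up to 1.66% (3 counts). Tfap2b barcodes, which carry horizontal markers, gave 9.56 CPM (6.24 to 14.0), next to the horizontal level, and bipolar barcodes 2.86 CPM, next to that of RGCs. In the full counts 9.91% of Müller, 11.2% of horizontal and 4.26% of RGC barcodes held a Serping1 UMI.

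Markers of other cells went with Serping1 in part. In Müller cells it stood at 42.8 CPM (19.6 to 81.2) in the 37 barcodes with an astrocyte marker UMI and at 19.4 CPM (11.5 to 30.7) in the 195 without one, still above the RGC level. In RGCs it stood at 6.40 CPM (2.57 to 13.2) in the 59 barcodes with a UMI of Cldn5, Ly6c1, Pecam1 or Flt1, genes of vessel endothelium, and at 2.70 CPM (1.93 to 3.67) in the 879 without. In horizontal cells it stood at 29.2 CPM (10.7 to 63.5) in the 17 barcodes with a UMI of these genes or Itm2a and at 10.1 CPM (7.48 to 13.4) in the 438 without. Other splits went the other way. By that endothelial list Serping1 in Müller cells stood at 23.1 CPM with and 27.1 CPM without such a UMI, mostly a split by Flt1, found in 186 Müller barcodes. By pericyte markers it stood at 20.8 CPM with and 25.2 CPM without in Müller cells, and at 0 and 11.1 CPM in horizontal cells. The intervals of each of these pairs overlapped. RGC barcodes with 3 or more UMIs of Spp1, a marker of alpha RGCs chosen after the values were seen, had 11.4 CPM (5.45 to 20.9), against 2.46 CPM (1.73 to 3.39) in the other 906. These 32 barcodes were also deeper, with a median of 26504 UMIs against 15620, and the CPM scale divides by depth.

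Across all genes, classes were also compared by fold, over every gene that had at least 20 UMIs in the pair of classes. In microglia over RGCs 8 of the 9 genes passed that minimum, all but C4b. C1qa, C1qb, C1qc, C3ar1, C5ar1 and Itgam, 6 of the 8, were more than 2-fold higher in microglia, where 17.9% of 13021 genes were. C3 alone was more than 2-fold lower, on its 1 microglial UMI, where 31.5% of genes were. C3ar1, C5ar1 and Itgam passed the minimum only through their microglial UMIs, with 4, 6 and 3 UMIs in RGCs, and C3 only through its RGC UMIs, so the minimum in part set these calls and their count supports nothing.

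The other contrasts held fewer of the 9. In Müller cells over RGCs 5 passed the minimum (the C1q genes, C3 and Serping1). Serping1 alone was more than 2-fold higher, where 19.3% of 12988 genes were, and C3 alone lower, on 2 UMIs, where 26.2% were. In horizontal cells over RGCs the same 5 passed, and Serping1 alone was higher, where 10.2% of 12940 genes were. None of the 5 was lower there, where 22.9% were. In Müller cells over microglia 7 passed, all but C3 and C4b: Serping1 was higher, where 23.6% of 9047 genes were, and the other 6 were lower, where 16.8% were. In this last contrast C3ar1, C5ar1, Itgam and Serping1 had 0 UMIs in the class where they were lower, so the minimum in part set these calls too. With 1 gene called among 5, the counts for Müller and horizontal cells over RGCs describe Serping1 and C3 and not the set.

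The rest of the complement system was read from a list of 55 other genes in the matrix. Of these, 16 had 0 UMIs in the 4 classes, among them the alternative pathway factors Cfb and Cfd and 5 of 7 genes of the terminal pathway. There were 27 genes with 20 or more UMIs over the 4 classes, and 12 of them were 4-fold or more higher in 1 class than in the other 3 summed, as were 26.8% of 13674 genes. In microglia over RGCs 8 of 24 tested genes of the list were more than 2-fold higher, where 17.9% of all genes were, and 8 lower, where 31.5% were. In Müller cells over RGCs 4 of 22 were higher (19.3% of all genes) and 7 lower (26.2%). In horizontal cells over RGCs 6 of 24 were higher (10.2%) and 5 lower (22.9%). In Müller cells over microglia 3 of 13 were higher (23.6%) and 6 lower (16.8%). Several of these counts lie near the share of all genes, and with lists this short none is read as particular to complement genes.

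Of the 12, 11 are described here, and microglia were the highest class for 5 of these. Itgb2, the beta chain that pairs with the Itgam product, reached 210 CPM, 193-fold (126 to 310) over the other 3 classes. C5ar2, the second C5a receptor, had 25 UMIs in microglia and 0 in the other 3 classes, at least 212-fold higher. Cr1l, a membrane regulator of C3, reached 49.6 CPM (5.74-fold), C1rl 9.23 CPM (10.2-fold on 8 UMIs) and the protease C2 6.92 CPM (5.10-fold on 6 UMIs).

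Müller cells were highest for Clu, the secreted chaperone clusterin, which inhibits the terminal pathway and which is also on the Müller marker list, at 3114 CPM (25.3-fold). They were highest too for Megf10, a C1q receptor of phagocytic glia, at 79.1 CPM (6.26-fold), and horizontal cells followed with 50.9 CPM. Horizontal cells were highest for Cr2, a receptor of C3 fragments, at 4.56 CPM, with 1 UMI in the other 3 classes and a ratio of 81.6 (13.3 to 3363). RGCs were highest for Sez6l, a neuronal transmembrane protein with complement control domains, at 54.6 CPM (5.66-fold), for Csmd3, of a related family, at 26.1 CPM (7.07-fold), and for the lectin Colec11 at 1.57 CPM (11.1-fold, 1.81 to 455). Csmd3 also had 20 UMIs in microglia, so its fold rests on the horizontal and Müller cells.

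**Figure D5:**
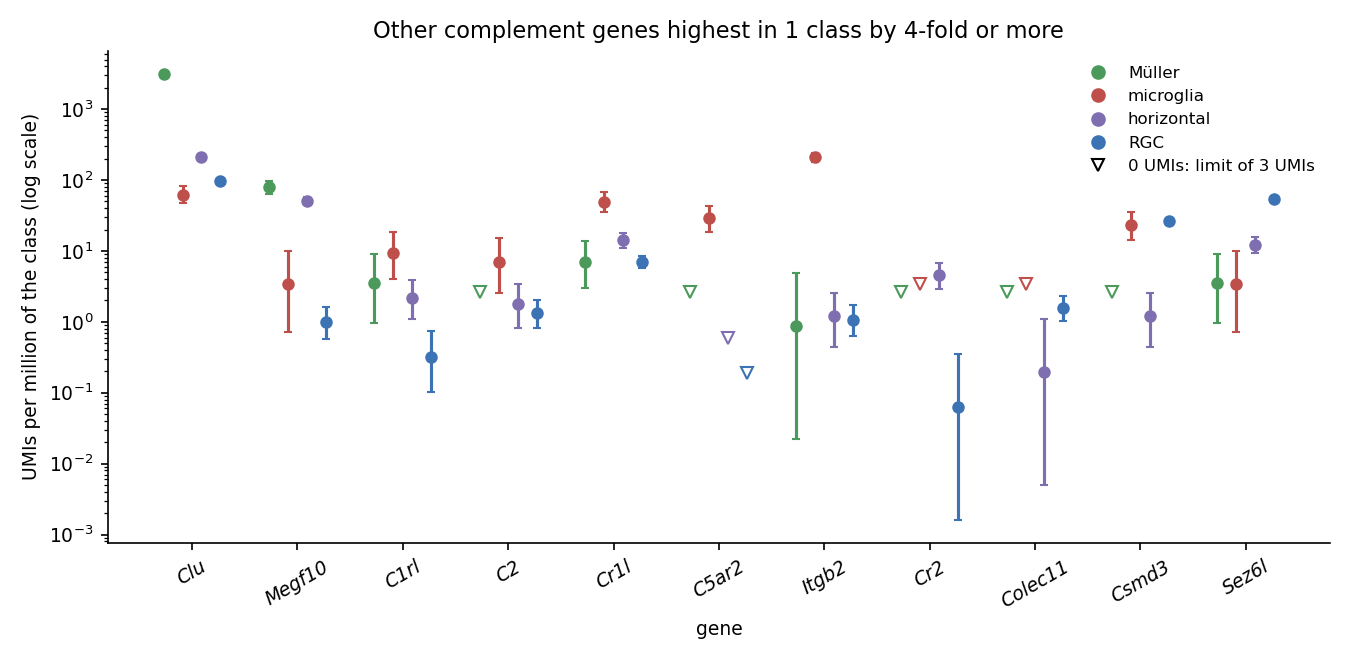
Level of 11 other complement genes (x axis) in CPM (y axis, log scale) in 4 classes, with exact 95% intervals; open triangles mark 0 UMIs at the limit of 3 UMIs. Clu reaches 3114 in Müller cells, Itgb2 210 in microglia, and C5ar2 has UMIs in microglia alone.

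The genes with the most similar pattern over 7 classes were found by Pearson's r of log2(CPM + 5) among 11495 genes. They were Cx3cr1, Ly86, Fgd2, Ecscr and Evi2a for C1qa, and r was 0.999 for Cx3cr1. Ikzf1, Ltc4s, Ecscr, Fcrls and Ccl4 were nearest to C1qb, and Ltc4s, Irf5, Fcer1g, Fcgr3 and Ccl4 to C1qc. Slc11a1, Cxcl2 and Cd74 were among the 5 nearest to both C3ar1 and C5ar1, and Adap2os, Gna15, Gmfg, Il1b and Bcl2a1a were nearest to Itgam. For Serping1 the nearest was Eva1c with r = 0.985, followed by Smim4, Tipin, Galnt11 and Aamdc. The 7 classes share 1 library, and with 1 class far above the others r is set mainly by that class for the microglial genes.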

How the data were processed

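Retinal cells sorted for GFP were measured as 3′ single-cell libraries. The authors deposited counts, whole UMIs for each gene in each barcode, not normalized. The submitters' processing notes name Cell Ranger (no version), Seurat 2.2 and mm10, and the calling of barcodes as cells is not given in the sources used here. All 4 retinas were treated as 1 pooled sample, without tests. Barcodes of no class rule were kept as further classes, and a symbol on several identifiers was resolved by the GENCODE name. UMIs were summed per class and scaled to CPM. Thinning drew 3000 UMIs per cell without replacement. Poisson, Clopper-Pearson and conditional ratio intervals were exact (95%), and a class at 0 was set to 3 counts. No cells were filtered and doublets were kept in the main values. The fold script was tested on simulated data with 200 changed genes. All 9 members are named. Other complement genes are named at 4-fold in 1 class over the other 3 summed, with 20 or more UMIs, microglial markers where they set a range, and the 5 most similar genes per member with 100 or more UMIs. Of the genes these rules name, 1 complement gene is not reported here. Members and lists were chosen with earlier results of these data known. The work used scanpy 1.11.5, matplotlib 3.10.9, pandas 2.3.3, scipy 1.17.1 and numpy 2.4.6 under Python 3.11.15. Counting precision follows the depth per class, 866869 UMIs in microglia and 15917469 in RGCs.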

Additional observations from a re-analysis of the deposited data

How the results depend on the processing

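Of 393 comparisons of a value with its alternative, 334 stayed within a set range of the value and 59 moved. The range was the counting interval, 1.5 times for counts of genes, and 1 standard deviation over the markers for marker medians. In horizontal cells Olfml3 widened the last to between -4.90% and 5.41%, so that median could hardly move. No Müller, horizontal or RGC barcode held 6 or more C1q UMIs, so leaving out such barcodes could change none of 36 values. Settings that left microglia untouched also recounted unchanged microglial values, so 334 does not measure how stable the results are. No paired analysis was possible because barcodes are not tied to retinas, and leaving out each retina in turn was not possible for the same reason. Scrublet called 58 of 3237 barcodes doublets, 12 of them among the 14 that met more than 1 rule, and leaving them out moved no value. Each value below was moved by the setting named, and the cause was not tested beyond what the setting itself changes.

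The microglial C1q level was 24591.5 CPM with a filter at 500 genes and 10% mitochondrial UMIs, 26317.7 as a mean of barcodes and 25167 without mitochondrial UMIs. Keeping barcodes that met 2 rules gave 21131.8 CPM, a ratio of 236 for microglia over RGCs, and C1q at 0.784%, 0.322% and 0.424% of the microglial level in Müller cells, horizontal cells and RGCs. The marker medians moved with it, to 0.815% in Müller cells and 0.435% in RGCs. As a mean of barcodes the ratio was 442, C1q in RGCs stood at 0.226% of microglia, and C5ar1 in microglia at 279 CPM. Shares with a C1q UMI without thinning were 26.7% in Müller cells, 45.1% in horizontal cells and 61.8% in RGCs, and at 2000 UMIs 13.8% in Müller cells and 10.6% in RGCs.

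The call of C3 as lower depended on the setting. In Müller cells over RGCs it was lost (0 members lower) under the filter, with 2 rules kept, with class thresholds doubled, without mitochondrial UMIs, without barcodes holding Tyrobp or Ctss UMIs, at a minimum of 100 UMIs, at a 4-fold threshold and, chosen after seeing the data, without Müller barcodes holding an astrocyte marker. In microglia over RGCs it was lost (0) with 2 rules kept, at 100 UMIs and at 4-fold. In horizontal cells over RGCs C3 became lower (1 member) under the filter, with 2 rules kept, with thresholds doubled, without Tyrobp or Ctss barcodes and, chosen after seeing the data, without RGC barcodes holding an endothelial marker. Serping1 in Müller cells over microglia fell below the minimum count (0 members higher) with thresholds doubled, at 100 UMIs and without the astrocyte marker barcodes. It was lost (0) at 100 UMIs in Müller cells over RGCs and at 4-fold in horizontal cells over RGCs. The members higher in Müller cells over RGCs were 2 with 2 rules kept (C1qa added) and 2 at a minimum of 1 UMI (C4b added), in Müller cells over microglia 2 at 1 UMI (C4b) and in horizontal cells over RGCs 2 at 1 UMI (C3ar1).

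Counts of genes past the fold moved with the minimum and the threshold. At 1 UMI, against 20, genes higher were 3618 (2335) in microglia over RGCs and 3968 (2501) in Müller cells over RGCs, and genes lower in Müller cells over microglia were 2519 (1521). At 100 UMIs they were 1320, 1410 and 496, with 733 (2132) higher in Müller cells over microglia and 1954 (2962) lower in horizontal cells over RGCs. At 4-fold, genes higher and lower were 1270 and 1785 in microglia over RGCs, 1232 and 1530 in Müller cells over RGCs, 489 and 1637 in horizontal cells over RGCs, and 1095 and 825 in Müller cells over microglia.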

Other observations

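Outside the 4 main classes, 3 further complement genes chosen after their values were seen had high levels. Vtn, which encodes the adhesive protein vitronectin, an inhibitor of the terminal pathway, reached 1123 CPM (1037 to 1216) in cone barcodes, where 98.4% of cells held a UMI. It stood at 64.2 CPM in Müller cells, 48.5 in microglia, 19.6 in horizontal cells and between 17.9 and 22.4 by its interval in RGCs. Cd59a, a membrane protein that blocks the terminal pathway, reached 280 CPM (237 to 327) in cone barcodes, 149 CPM in horizontal cells and 42.2 CPM in RGCs. Cone barcodes also carried rod markers at 16357 CPM, and the part of rod transcripts in these levels was not tested. Cfi, the protease that inactivates C3 fragments, had 46 UMIs in bipolar barcodes (14.6 CPM, 10.7 to 19.5), 6 in microglia (6.92 CPM) and 3 in RGCs. The microglial level rests on few UMIs, so its difference from the bipolar level is uncertain.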
